A study of Aspergillus niger with 6 samples.

Results

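The genes leu2A (An01g14130) and leu2B (An04g10130) of Aspergillus niger both carry the name of isopropylmalate dehydrogenase, an enzyme of leucine synthesis. They are 2 of the 15431 genes listed in the deposited tables, each listed once under the identifier given in brackets and each with reads in all 6 libraries. The pair was chosen by its measured counts, because the 2 genes change in opposite directions between the culture conditions. Their levels are therefore given as a description, without a test, and tests are reported only for other genes.

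RNA was sequenced from mycelium of the laboratory strain N402, grown in shake flasks at 28 °C, with 2 cultures (A and B) in each of 3 conditions. In the first condition the mycelium grew for 48 h with 1% glucose as carbon source. In the second, mycelium of such 48 h glucose cultures was washed and 1.5 g of it was moved to medium with 1% ball-milled willow wood for 24 h. In the third, glucose was added to such a willow culture and growth went on for another 5 h. All willow mycelium had thus been raised on glucose, so that transfer, age and carbon source differ together between the first and second condition. No culture stayed on willow for the last 5 h without glucose, so added glucose and further time cannot be told apart. Genes received between 434508 (willow, B) and 775667 (glucose added, A) reads per library. The p-values set a difference against the spread between the few cultures of a condition, estimated from all 3 conditions together. For each gene this spread was moderated with that of the other tested genes. It therefore does not rest on the cultures of that gene alone. In such bulk RNA, fewer cells of one kind and less RNA per cell cannot be told apart.

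Leucine is made from 2-oxoisovalerate, an intermediate of valine synthesis, and acetyl-CoA. Isopropylmalate synthase joins them, isopropylmalate isomerase rearranges the product, and isopropylmalate dehydrogenase oxidises and decarboxylates it with NAD+ to the oxo acid that a transaminase turns into leucine. Baker's yeast has a single gene for the dehydrogenase, LEU2, widely used as a selection marker, whereas filamentous fungi such as Aspergillus can carry several. In Aspergillus nidulans, the zinc cluster protein LeuB activates leucine synthesis genes and also gdhA, the gene of NADP-dependent glutamate dehydrogenase, which ties this pathway to nitrogen assimilation.

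On glucose, leu2A was the dominant gene of the pair. It had 188 reads in library A and 142 in library B, or 258 and 172 CPM. CPM is the count per 1000000 reads on the 6181 genes kept for testing, with the library size adjusted by edgeR's TMM factors. On willow it had 15 and 7 reads, or 32.7 CPM in A and 19.4 CPM in B. After glucose was added it had 94 and 31 reads, or 116 CPM in A and 71.7 CPM in B. By the library values the conditions did not overlap. Every glucose library lay above both libraries with added glucose, and these lay above both willow libraries. Mean levels (± SD, n = 2 each) were 215 ± 60.9 CPM for glucose, 26.0 ± 9.39 CPM for willow and 93.9 ± 31.4 CPM with added glucose.

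For leu2B the order was different. It had 14 and 17 reads on glucose, or 19.2 CPM in A and 20.6 CPM in B. On willow it had 59 and 72 reads, or 128 and 199 CPM. After glucose addition 9 and 5 reads remained, or 11.1 and 11.6 CPM. Both willow libraries stood far above the other 4, with a mean of 164 ± 50.1 CPM against 19.9 ± 0.956 CPM for glucose and 11.3 ± 0.316 CPM with added glucose (± SD, n = 2 each).

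With such read numbers the precision of a single library is limited. The exact 95% counting interval of leu2A ran from 222 to 297 CPM in glucose A, but from 7.79 to 39.9 CPM in willow B. For leu2B it ran from 156 to 251 CPM in willow B and from 3.75 to 27.0 CPM in the B library with added glucose. The leu2B intervals of all 4 libraries from glucose and added glucose overlapped, so its lower level after glucose addition than on glucose was not resolved at this depth. For leu2A, the intervals of willow A (18.3 to 53.9 CPM) and of the B library with added glucose (48.7 to 102 CPM) overlapped. All these intervals cover counting error only.

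**Figure D1:**
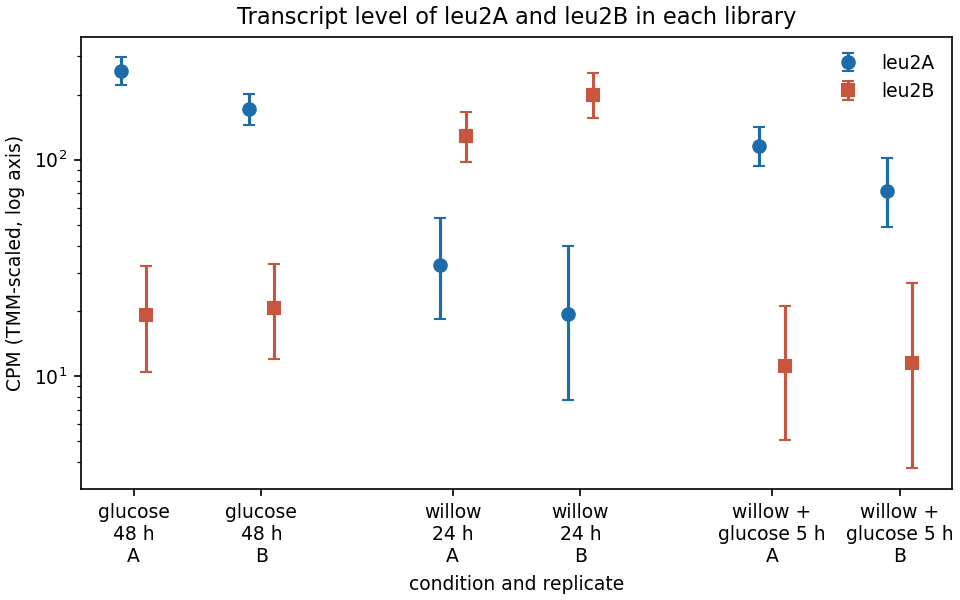
TMM-scaled CPM of leu2A (circles) and leu2B (squares) on a log axis in each of the 6 libraries, with exact 95% counting intervals as bars. In both willow libraries leu2B lies above leu2A (128 against 32.7 CPM in A, 199 against 19.4 CPM in B), and in the other 4 libraries leu2A lies above leu2B.

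Expressed as folds, the mean of leu2A was 8.25-fold lower on willow than on glucose, and that of leu2B was 8.24-fold higher. The corresponding edgeR estimates of the log2 fold change were -3.01 ± 0.44 (SE) for leu2A and 3.02 ± 0.44 for leu2B, opposite in sign. Their relative size depended on the scaling. The log2 ratios of means were -3.05 for leu2A and 3.04 for leu2B with TMM, -3.49 and 2.61 with total-count scaling, and -4.07 and 1.88 on the deposited RPKM values. Between willow and added glucose, leu2A was 3.61-fold higher (log2 estimate 1.84 ± 0.45) and leu2B 14.5-fold lower (-3.83 ± 0.49). These 2 comparisons share the willow libraries. With added glucose the mean of leu2A was at 43.7% of the level in the 48 h glucose cultures, with a log2 estimate of -1.16 ± 0.36. The mean of leu2B was at 57.0%, with -0.81 ± 0.55, a difference within the counting error given above.

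The 2 cultures of a condition differed by less than the condition means did. For leu2A the higher culture exceeded the lower 1.50-fold in the glucose pair, 1.69-fold in the willow pair and 1.62-fold in the pair with added glucose. For leu2B these ratios were 1.07, 1.55 and 1.04. In each condition leu2A was lower in the library labelled B. Among the B libraries, those from willow and from added glucose had the fewest reads on genes (434508 and 437314) and the highest shares of multiply aligned reads (75.7% and 74.8%), whose part in the values was not tested.

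Dividing one gene by the other within a library removes any scaling between libraries. Per unit of gene length (1241 bp for leu2A and 1306 bp for leu2B, as implied by the deposited counts and RPKM), leu2A exceeded leu2B 14.1-fold in glucose A and 8.79-fold in glucose B. On willow the order was turned, with leu2B exceeding leu2A 3.74-fold in A and 9.77-fold in B. With added glucose leu2A again exceeded leu2B, 10.99-fold in A and 6.53-fold in B.

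As a share of the length-corrected level of both genes, leu2B made up 6.61% (95% Clopper-Pearson interval 3.66% to 10.8%) in glucose A and 10.2% (6.06% to 15.9%) in glucose B. On willow its share was 78.9% (67.7% to 87.7%) in A and 90.7% (81.8% to 96.2%) in B. After glucose addition it was 8.34% (3.88% to 15.3%) in A and 13.3% (4.45% to 28.5%) in B. The shares on glucose and after glucose addition overlapped, while both willow libraries lay far above them. The mean share was 8.41% ± 2.55, 84.8% ± 8.36 and 10.8% ± 3.50 in the 3 conditions (SD, n = 2 each).

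**Figure D2:**
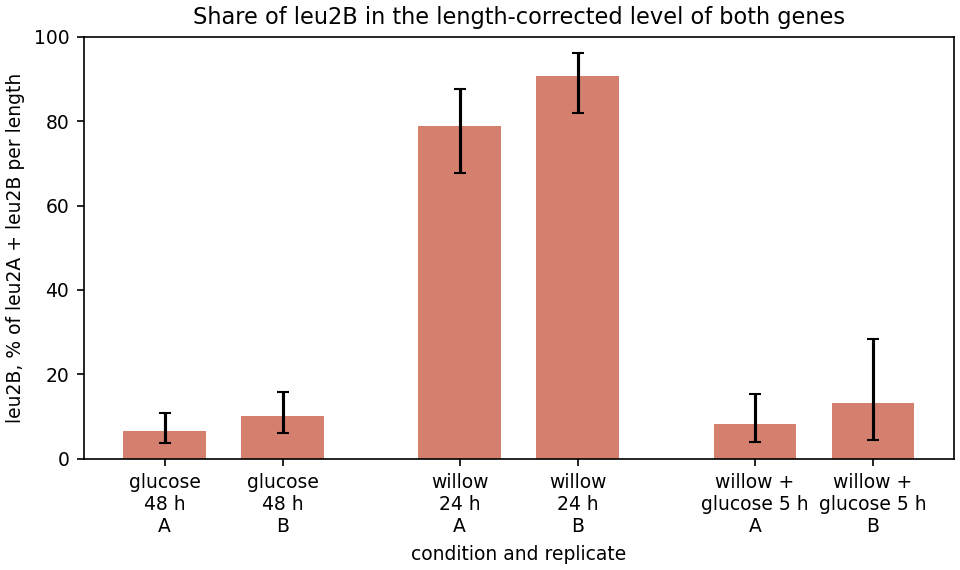
Share of leu2B in the summed, length-corrected level of leu2A and leu2B, in percent, for each library, with 95% Clopper-Pearson intervals. The 2 willow libraries stand at 78.9% and 90.7%, and the other 4 between 6.61% and 13.3%.

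With TMM scaling, the summed level of the pair overlapped between glucose and willow. In CPM per kb of gene length, both genes together reached 222 and 154 in the glucose libraries, 125 and 168 in the willow libraries and 102 and 66.6 in the libraries with added glucose. The means were 188 ± 48.4 CPM per kb on glucose and 146 ± 30.8 CPM per kb on willow (n = 2 each). With this scaling both libraries with added glucose lay below all others (84.3 ± 25.1 CPM per kb). On the deposited RPKM values neither statement held. There, leu2A alone had 7.09 and 4.52 on glucose and 3.07 in the A library with added glucose. The pair stood lower in both willow libraries, with 0.504 (leu2A) and 1.88 (leu2B) in A and 0.189 and 1.85 in B.

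Among the 6181 genes with enough reads to be tested, leu2A was an abundant transcript on glucose. Per length it exceeded 91.0% of these genes in glucose A and 86.2% in glucose B, but 41.5% and 27.5% in the willow libraries, and 81.3% and 68.9% in those with added glucose. For leu2B the shares were highest in the willow libraries, at 79.9% and 86.6%, against 26.6% and 29.1% for glucose and 14.3% and 16.2% with added glucose. In the difference between willow and glucose, 3.88% of tested genes had a lower log2 estimate than leu2A and 92.7% a lower one than leu2B.

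The reference table used for names gives no other gene of leucine, valine or isoleucine synthesis by its symbol, so further steps of the pathway were not analysed here. For the wider metabolism of nitrogen and amino acids, 44 gene symbols were looked up, which matched 7 entries. Of these, areA, argB, trpC and An01g07890, one of the 2 entries named cpcA, are listed at 0 in every library. The same holds for 3720 of the 15431 genes listed, and whether a 0 means an absent transcript was not tested. The other 3 were tested: gdhA (An04g00990), niaD (An08g05610), which encodes nitrate reductase, and the other cpcA entry (An01g07900), which encodes the transcriptional activator of amino acid synthesis genes under amino acid starvation.

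On willow, 2 of these 3 genes, gdhA and niaD, fell and cpcA rose relative to glucose. Across all genes tested in this comparison, 13.5% were called lower and 17.6% higher (edgeR, quasi-likelihood F test, with a threshold of 0.05 on the p adjusted by Benjamini and Hochberg), and with 3 genes no share can be read against that. The median log2 fold change of the 3, which is the value of gdhA itself, was -3.07, against -0.08 over all tested genes. The gdhA level was 1263 and 1709 CPM on glucose, 266 and 83.0 CPM on willow and 727 and 516 CPM with added glucose. Its log2 fold change on willow was -3.07 ± 0.44 (edgeR adjusted p = 5.24e-06), with -4.16 without willow A and -2.50 without willow B. This fall of gdhA was already known from earlier results of these data, so its test gives no further support. The groups did not overlap, and the order of the 3 conditions was that of leu2A.

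After glucose addition gdhA and niaD rose and cpcA fell relative to willow, where 17.2% of all tested genes were called higher and 20.5% lower. The median of the 3, again the value of gdhA, was 1.82, against 0.04 over all tested genes. For gdhA the log2 fold change was 1.82 ± 0.43 (edgeR adjusted p = 0.00170), and its mean reached 41.8% of the 48 h glucose level. This rise was 2.90 without willow A (edgeR adjusted p = 4.71e-06) and 1.23 without willow B (0.0382). Between added glucose and 48 h glucose, the median of the 3 was -0.08, here the value of cpcA, against 0.01 over all tested genes. In this comparison 10.0% of all genes were called higher and 8.87% lower. None of the 3 was called higher, and gdhA was called lower (-1.25 ± 0.40, edgeR adjusted p = 0.0303). That call was lost without glucose B (-1.02, adjusted p = 0.0877), without the A library with added glucose (-1.52, 0.0675) and without its B library (-1.03, 0.229).

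Nitrate reductase transcripts changed in the same direction as leu2A on willow, but went further after glucose. The niaD level was 1707 and 1088 CPM on glucose, 133 and 49.8 CPM on willow and 3249 and 2440 CPM with added glucose. The log2 fold change was -3.91 ± 0.46 on willow (edgeR adjusted p = 3.05e-07) and 4.94 ± 0.48 after glucose addition (2.17e-08). Without willow A these were -4.81 and 5.82, and without willow B -3.41 and 4.42. With added glucose its mean stood at 203.5% of the 48 h glucose level, a difference that did not pass the test (1.03 ± 0.40, edgeR adjusted p = 0.0744). It passed without glucose A (1.39, adjusted p = 0.0223), and without willow A or willow B (1.01 and adjusted p = 0.0424 in each).

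The cpcA entry An01g07900 moved in the direction of leu2B. It had 215 and 173 CPM on glucose, 351 and 470 CPM on willow and 152 and 217 CPM with added glucose. The log2 fold change was 1.08 ± 0.33 on willow (edgeR adjusted p = 0.0152) and -1.16 ± 0.34 after glucose addition (0.00916). When libraries were scaled by their total counts, the first call did not hold (0.64, adjusted p = 0.131), nor did it without glucose B (0.89, 0.115) or without willow B (0.84, 0.125). The second was lost without willow B (-0.94, adjusted p = 0.0719) and without the A library with added glucose (-0.87, 0.180).

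A further 3 genes with symbols in the table were added later, with the data at hand. The tests of these 3 genes therefore give no independent support. The gene icdA (An02g12430) encodes NADP-dependent isocitrate dehydrogenase, an enzyme of the same superfamily as isopropylmalate dehydrogenase that forms the 2-oxoglutarate used by glutamate dehydrogenase. It had 433 and 462 CPM on glucose, 78.4 and 77.5 CPM on willow and 379 and 342 CPM with added glucose. It fell on willow (log2 fold change -2.52 ± 0.35, edgeR adjusted p = 3.48e-06) and rose after glucose addition (2.21 ± 0.35, adjusted p = 2.64e-05), with its mean at 80.6% of the 48 h glucose level.

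The citrate synthase gene citA (An09g06680), whose product catalyses a condensation with acetyl-CoA like that of isopropylmalate synthase, had a similar course. It had 421 and 688 CPM on glucose, 102 and 72.0 CPM on willow and 506 and 331 CPM with added glucose. It fell on willow (-2.66 ± 0.39, edgeR adjusted p = 6.76e-06) and rose after glucose addition (2.26 ± 0.39, adjusted p = 6.60e-05). Neither icdA (-0.31 ± 0.31, edgeR adjusted p = 0.557) nor citA (-0.40 ± 0.34, adjusted p = 0.479) passed the test between added glucose and 48 h glucose. The gene argA (An02g07250), whose role the sources used here do not give, had 34.6 to 91.4 CPM over the 6 libraries and passed no test.

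**Figure D3:**
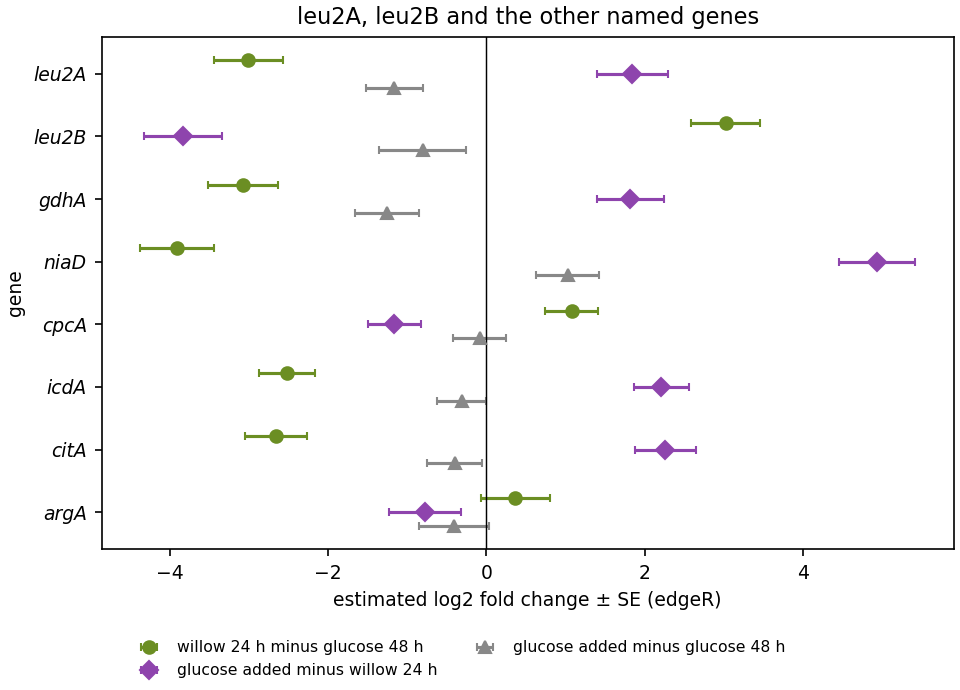
edgeR estimates of the log2 fold change with their SE (bars) for leu2A, leu2B and the 6 other named genes with a symbol, in the 3 comparisons. The genes leu2A, gdhA, niaD, icdA and citA lie below 0 for willow minus glucose and above 0 for added glucose minus willow, and leu2B and cpcA lie on the opposite sides.

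The pair does not lie together in the genome of the reference strain as annotated by RefSeq (assembly ASM285v2), and neither gene has the other among its nearest neighbours. Of the 2 nearest listed genes on each side of leu2A, An01g14110 and An01g14140 were tested, while An01g14120 had 1 to 8 reads per library and An01g14160 had none. Neither tested neighbour passed the test between willow and glucose (log2 fold change -0.73 ± 0.39 for An01g14110, edgeR adjusted p = 0.163, and -0.97 ± 0.75 for An01g14140, adjusted p = 0.361). With total-count scaling An01g14110 was called lower (-1.17, adjusted p = 0.0211).

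After glucose addition both rose relative to willow. An01g14110 went from 61.9 to 208 CPM in the mean (1.77 ± 0.38, edgeR adjusted p = 8.37e-04) and An01g14140 from 7 and 1 reads to 51 and 17 reads (2.42 ± 0.70, adjusted p = 0.00854). The call of An01g14140 was lost without willow B (1.77, adjusted p = 0.0518) and without the A library with added glucose (2.06, 0.101), and without willow A its estimate was 4.14 (0.00141). Both had higher means with added glucose than on 48 h glucose. For An01g14110 (1.04 ± 0.35, edgeR adjusted p = 0.0380) that difference passed, and it was lost with DESeq2 (adjusted p = 0.0999), with total-count scaling (0.0736), without a count filter (0.0573) and without any one of the 4 glucose or glucose-added libraries (0.0582 to 0.316). For An01g14140 it did not (1.45 ± 0.58, edgeR adjusted p = 0.0827), but it did without glucose A (2.24, adjusted p = 0.0330), without willow A (1.44, 0.0285), without willow B (1.44, 0.0281) and in a fit of both groups alone (1.44, 0.0454).

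Beside leu2B, An04g10110 and An04g10140 were tested, while An04g10120 had 0 to 6 reads per library and An04g10150 had none. On willow An04g10140 had a mean of 82.5 CPM against 77.6 CPM on glucose (0.09 ± 0.46, edgeR adjusted p = 0.908). For An04g10110 the means were 22.3 and 7.14 CPM (1.61 ± 0.73, adjusted p = 0.103). Neither passed the test in any of the 3 comparisons, whereas leu2B itself ranged from 11.3 to 164 CPM between the condition means.

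The genes most similar to each member were sought among 3086 other tested genes with a mean of at least 50 CPM, by the Pearson correlation of log2 CPM over the 6 libraries. These libraries form 3 groups, and values scaled in the same libraries share their depth, so the correlations only describe the likeness. For leu2A the 5 highest were An12g08570 (r = 0.995), An13g02480 (0.991), An03g01010 (0.989), An12g04950 (0.988) and An11g03230 (0.988), none of which has a symbol in the table. An12g08570 went from 257 and 205 reads on glucose to 10 and 3 on willow and to 81 and 31 with added glucose. Its mean with added glucose was at 28.6% of the 48 h glucose level, that of An13g02480 at 37.3%, and those of the other 3 between 65.2% and 70.7%. The correlation of gdhA with leu2A was 0.958, that of icdA 0.926, that of citA 0.918 and that of niaD 0.822. With leu2B the same genes had correlations of -0.819, -0.949, -0.923 and -0.995, of larger size than with leu2A for icdA, citA and niaD.

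For leu2B the 5 most similar genes were An12g00030 (r = 0.993), An07g01430 (0.992), An18g05500 (0.992), An07g00150 (0.992) and An16g02910 (0.990), again without symbols. Their ranges differed widely although their course was alike. An18g05500 went from 43.8 CPM on glucose to 2523 CPM on willow and 14.8 CPM with added glucose, and An07g00150 from 21.2 to 126 and 10.8 CPM. Their means with added glucose were at 33.8% to 61.6% of the 48 h glucose level, which their choice by likeness to leu2B over these libraries favours. An07g01430, An18g05500, An07g00150 and An16g02910 reached the mean of 50 CPM only through their willow libraries. An07g01430 had 5 reads in each glucose library and 1 and 2 with added glucose. Only An12g00030 had means above 50 CPM outside willow (183 CPM on glucose and 112 CPM with added glucose). The correlation of cpcA with leu2B was 0.940, and that between leu2A and leu2B was -0.816.

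**Figure D4:**
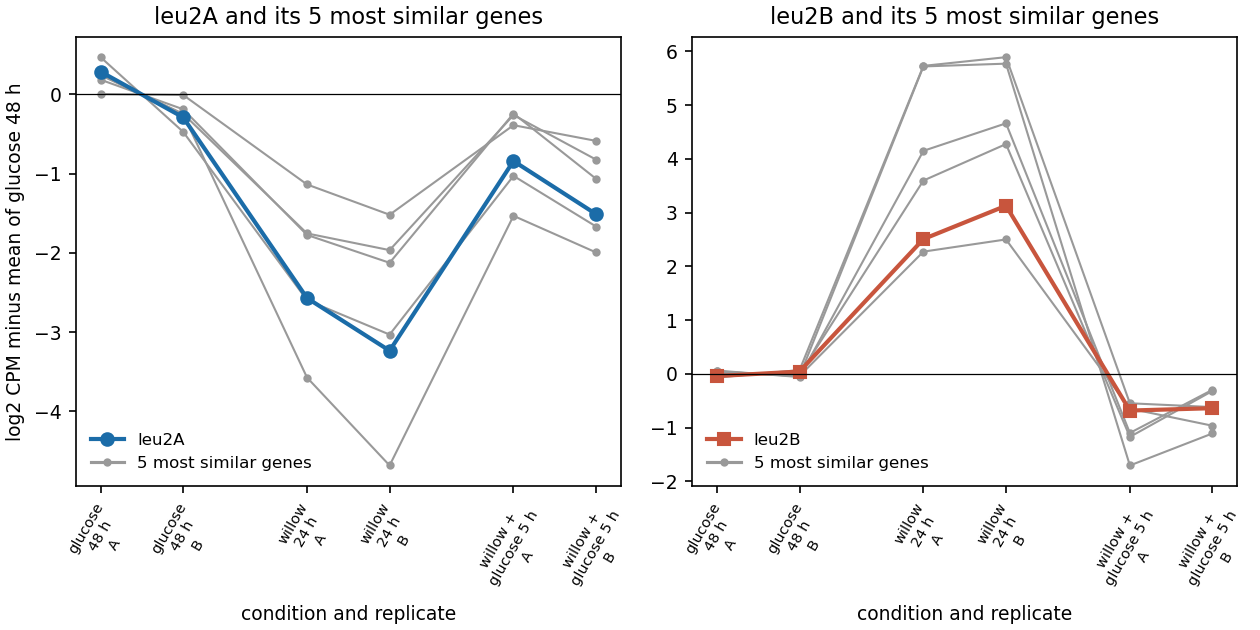
log2 CPM (prior count of 2) minus the mean of both glucose 48 h libraries, for leu2A (left) and leu2B (right) in colour and the 5 genes most correlated with each in grey. Lines only join the points of a gene; the genes near leu2A are low on willow and partly back with added glucose, and those near leu2B are high on willow and under the glucose level with added glucose.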

How the data were processed

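Each deposited table, per the file headers, gives the authors' counts per gene (unscaled reads) beside RPKM. The submitters' processing notes name HTSeq, with no version, and the aligner is not given in the sources used here. Paired ends of 50 and 35 bp were read on a SOLiD instrument after ribosomal RNA depletion, per the labels' protocols. The 5 entries for reads not assigned to a gene (96.9% to 98.5% of reads) were left out. With their sum in the denominator, 100% of gene lengths implied by counts and deposited RPKM values were whole numbers to within 0.01 bp, where a gene had over 20 counts, against 2.01% with the sum over genes, so the authors scaled RPKM to all reads. Multiply aligned reads were 58.4% to 75.7% of reads. Reads shared by leu2A and leu2B would be among them, and their sequences were not compared here.

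The counts were fitted in R 4.3.3 by edgeR 4.0.16 (glmQLFit, then a two-sided glmQLFTest, TMM, Benjamini-Hochberg over all genes, threshold 0.05). The filter (minimum count 10, minimum total 15) kept 6181 of 15431 genes, both members included. All 6 libraries entered one fit of group means with 3 residual degrees of freedom per gene, and the procedure was tested on simulated data. edgeR moderated the spread of each gene with that of the other genes. The SE was taken as the size of the log2 estimate over the square root of F. DESeq2 1.42.0, other scalings and filters, each library left out and a replicate block were tried. The members and gene lists were chosen with earlier results of these data known. Named were the members, the listed genes by symbol, 2 neighbours per side and the 5 most correlated genes. Of 25 symbols for branched-chain amino acid synthesis only the 2 members were found, so the planned pathway counts hold no other gene. The planned searches by product name, protein signature, protein similarity and promoter motif were not run, and none of 6 sporulation symbols was found.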

Additional observations from a re-analysis of the deposited data

How the results depend on the processing

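Both members kept the direction of each difference with RLE size factors, total-count scaling, the deposited RPKM and each library left out. On the deposited RPKM values, which the authors scaled to all reads and on which the median tested gene stood at -1.18 for willow minus glucose (log2), the ratio of means was -4.07 for leu2A and 1.88 for leu2B, against -3.05 and 3.04. For added glucose minus willow it was 2.52 for leu2A (against 1.85) and -3.16 for leu2B (against -3.85; median gene 0.69), and for added glucose minus 48 h glucose -1.28 (against -0.81; median gene -0.45). Total-count scaling gave -0.95 for the latter and moved the median gene to -0.51 for willow minus glucose. Leaving out each library gave -3.47 to -2.72 for leu2A and 2.69 to 3.33 for leu2B on willow. Without length correction the mean leu2B shares were 8.81%, 85.4% and 11.3%.

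A minimum of 50 counts in 2 libraries tests fewer genes and left 1056 instead of 1925 genes called for willow against glucose, 1297 instead of 2336 for added glucose against willow and 769 instead of 1167 for added against 48 h glucose. Leaving out a library gave 1496 (without glucose-added A) to 2501 genes in the second comparison and 631 (without glucose-added A) to 1439 in the third, where glucose B left out gave 722 and glucose-added B 776. With total-count scaling, 35.2% of calls were higher on willow instead of 56.6%, and 59.9% after glucose addition instead of 45.6%. All 3 listed genes were called in the first and second comparison, and 2 or 3 without a library. In the third comparison 1 was called, with 0 to 2 without a library and 2 with the replicate letter as a replicate block, which added niaD (1.05, edgeR adjusted p = 0.0209). The block called 2004, 2432 and 1292 genes. The letters A and B mark no shared batch in the labels, and the differences A minus B correlated over genes by -0.0137, 0.120 and 0.167 between conditions, so pairing is not shown. At the depth of these libraries, a leu2B level of 5 to 17 reads limits any comparison of the glucose conditions.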
